A study of Homo sapiens with 6 samples.

Results

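The 10 genes described here are those most often used to place a carcinoma cell on the scale between epithelial and mesenchymal identity. They are the cadherins CDH1 and CDH2, the epithelial adhesion molecule EPCAM, the intermediate filament gene VIM, the matrix gene FN1 and the transcription factors ZEB1, ZEB2, SNAI1, SNAI2 and TWIST1. They were taken by gene symbol from the 35993 genes of the deposited gene table, and all 10 are listed in it.

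The mRNA profiles are of MIA PaCa-2, a long-established line of human pancreatic carcinoma cells, and were made to ask how exogenous cytoglobin changes gene expression in cancer cells. The untreated group comprised 3 libraries from cells without the protein, and the rhCYGB group comprised 3 libraries from cells given recombinant human cytoglobin at 4 µM for 48 h. Cells of both groups were kept in DMEM with 1% FBS. The protein was His-tagged and made in E. coli, 1 cancer line was used, and the labels do not say whether the libraries of a group came from separate cultures, so the p-values measure the spread between these libraries only. Counts on genes summed to between 34838399 and 42271299 per library, and 14728 genes had enough counts for a test.

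In epithelial-mesenchymal transition, cells lose E-cadherin junctions and apical-basal polarity and gain a vimentin network, matrix secretion and motility. Zinc-finger repressors of the Snail family (SNAI1, SNAI2) and of the ZEB family (ZEB1, ZEB2), together with the basic helix-loop-helix factor TWIST1, drive this program. The Snail and ZEB factors bind E-box sequences in promoters such as that of CDH1, and ZEB1 and the microRNAs of the miR-200 family repress each other.

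The stretches ahead of the start sites of VIM and ZEB1, which rose, and of ZEB2, which had no count, are shown because Snail and ZEB proteins read E-boxes in such stretches. Each is the 250 bases before a RefSeq start site (build GRCh38.p14), 5′ to 3′ on the gene's strand, and capitals mark the E-box CAGGTG or its reverse complement CACCTG. The VIM stretch is chr10:17227991-17228240 on the plus strand, that of ZEB1 is chr10:31318966-31319215 on the plus strand, and that of ZEB2 is chr2:144520120-144520369 on the minus strand.
VIM: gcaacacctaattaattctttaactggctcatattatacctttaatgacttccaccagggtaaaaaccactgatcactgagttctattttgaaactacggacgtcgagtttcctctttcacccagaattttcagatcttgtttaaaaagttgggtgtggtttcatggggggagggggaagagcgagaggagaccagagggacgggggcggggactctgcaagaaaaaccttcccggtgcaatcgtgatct
ZEB1: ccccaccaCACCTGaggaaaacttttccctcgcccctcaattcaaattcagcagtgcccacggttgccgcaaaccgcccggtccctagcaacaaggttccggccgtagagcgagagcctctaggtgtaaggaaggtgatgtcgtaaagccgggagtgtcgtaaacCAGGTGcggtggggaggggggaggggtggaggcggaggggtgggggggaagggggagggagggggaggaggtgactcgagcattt
ZEB2: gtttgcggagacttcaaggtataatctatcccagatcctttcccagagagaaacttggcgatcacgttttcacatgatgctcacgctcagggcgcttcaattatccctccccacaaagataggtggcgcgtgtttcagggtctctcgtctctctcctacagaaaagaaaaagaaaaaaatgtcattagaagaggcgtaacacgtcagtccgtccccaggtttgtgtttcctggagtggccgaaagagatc
The ZEB1 stretch shown held 2 copies, the most among the start sites of that gene, and the VIM and ZEB2 stretches held none. ZEB1 had 7 start sites in the RefSeq table, of which 2 had the motif in these 250 bases. Over all 35116 start sites of 27305 genes, 17.5% had at least 1 copy and 2.53% had 2 or more. These shares are for single start sites and are no measure for the ZEB1 site with the most copies. The stretches of FN1 and CDH2 also lacked these letters, and CDH1, SNAI1, SNAI2, TWIST1 and EPCAM were not among the entries used. A match is a description of the letters only, and no binding was measured.

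MIA PaCa-2 cells expressed VIM at a high level, ZEB1, SNAI1 and SNAI2 at far lower levels, and neither CDH1 nor CDH2 above 2 counts. After rhCYGB, VIM, ZEB1 and SNAI1 were higher, with folds of 1.47, 2.26 and 2.63, and none of the tested genes was called lower. SNAI2 and FN1 did not pass the test. The other 5 genes, CDH1, CDH2, ZEB2, TWIST1 and EPCAM, had too few counts to test in either condition. Thus 3 of the 5 tested genes were called higher at a Benjamini-Hochberg adjusted p under 0.05 (edgeR quasi-likelihood test), where 39.0% of all tested genes were called higher and 38.6% lower. For the same 3 genes every treated library lay above every untreated library, as it did for 39.8% of tested genes, and for none of the 5 did every treated library lie below, as it did for 39.7%. With an added 2-fold limit, ZEB1 and SNAI1 were called higher, where 12.4% of all tested genes were. In all, 77.6% of tested genes passed in some direction, so a pass by itself did not set these genes apart. RNA was measured in bulk, and fewer cells of a type and less RNA per cell cannot be told apart.

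**Figure D1:**
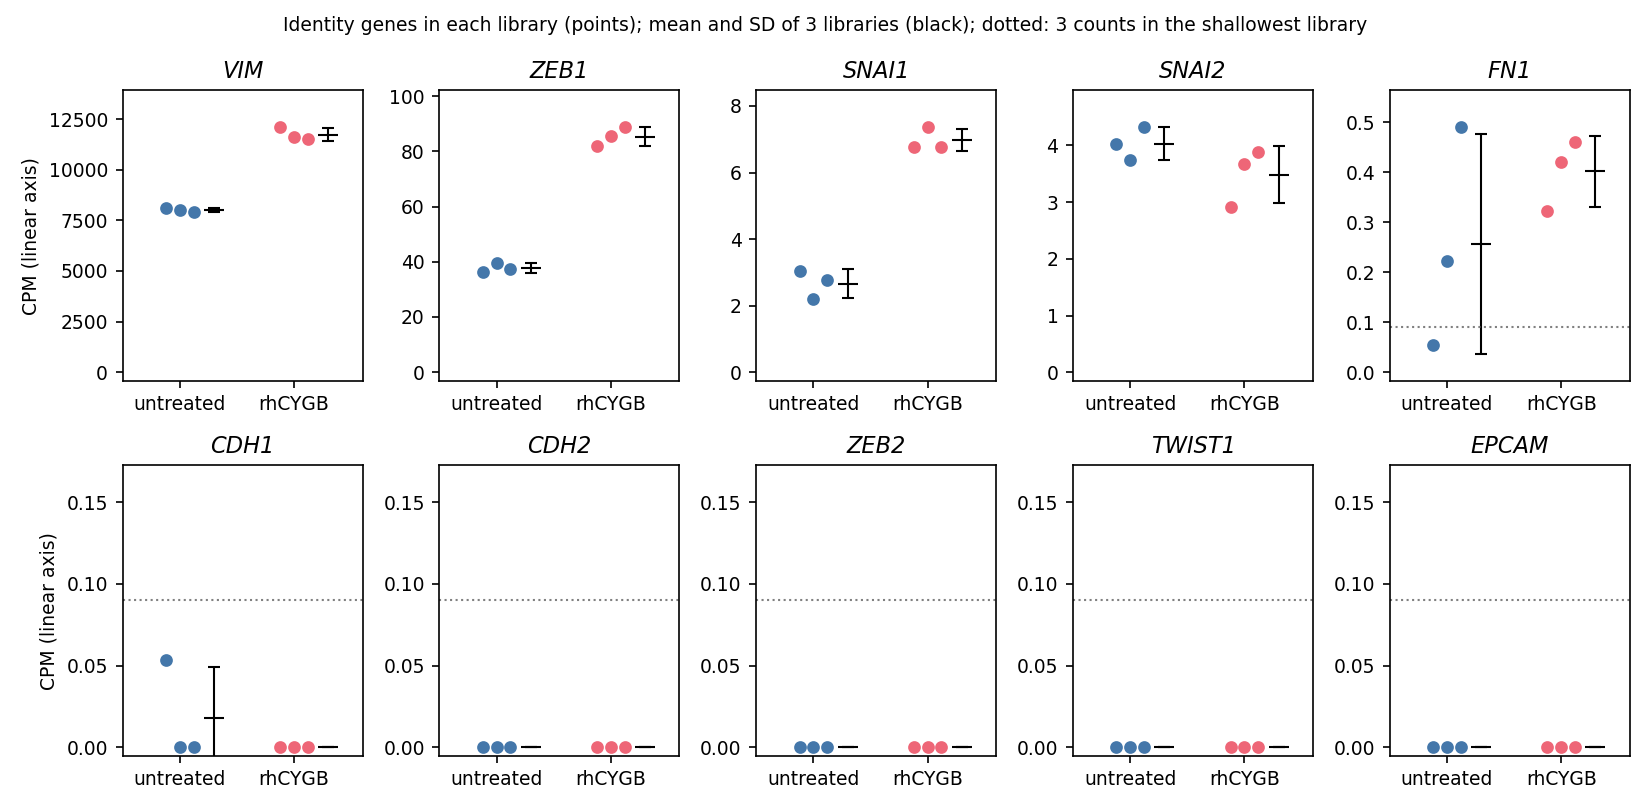
CPM (read counts relative to the TMM-scaled library size, on linear axes that differ between the panels) of the 10 genes in each library, with points for libraries and black bars for the mean ± SD of 3 libraries. The dotted line marks 3 counts in the shallowest library. The rhCYGB libraries lie above the untreated libraries for VIM, ZEB1 and SNAI1, the groups overlap for SNAI2 and FN1, and CDH1, CDH2, ZEB2, TWIST1 and EPCAM lie under the dotted line or at 0 in every library.

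The label of the cells was checked against cell type markers. Pancreatic ductal carcinoma markers KRT8, KRT18, KRT7, KRT19, MUC1 and SOX9 were all tested, and their summed level lay at 3990 to 4220 CPM in untreated and 3020 to 3220 CPM in rhCYGB libraries. Most of that sum was KRT8 and KRT18. KRT7 was barely counted, at 0.5887 ± 0.04819 CPM in untreated and 0.8232 ± 0.2002 CPM in treated cells (SD, n = 3). Of these 6 markers, 4 (KRT8, KRT19, MUC1 and SOX9) were lower after rhCYGB and none was higher. Of all tested genes 38.6% were lower, 39.0% were higher and 77.6% passed in some direction, beside 66.7% of these markers. Among 7 fibroblast or stellate cell markers, DCN and LUM were at 0 in every library, while the summed level went from 143 to 153 CPM in untreated to 6.3 to 8.27 CPM in treated libraries, most of it COL1A2. Among 4 endothelial markers, PECAM1 and KDR were at 0, and the summed level of 109 to 122 CPM in untreated and 10.5 to 13.6 CPM in treated libraries was nearly all CDH5. Among 4 leukocyte markers, PTPRC and CD3E were at 0, and the summed level of 38.4 to 42.0 CPM in untreated and 70.6 to 72.7 CPM in treated libraries was mostly CD68, while CD14 fell from 4.103 ± 0.05734 to 0.2254 ± 0.05687 CPM (SD, n = 3). The 6 acinar and endocrine markers summed to at most 0.0446 CPM. These levels moved with the treatment, and their part in the changes of the identity genes was not tested.

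CDH1 (gene ID 999, chr16:68771195-68869440 in the deposited table, whose build is not named) encodes E-cadherin, the adhesion molecule of epithelial junctions. It had 2 counts in untreated library 1 and 0 in the other 5 libraries. CDH2 (gene ID 1000, chr18:25530930-25757094), which encodes N-cadherin, the cadherin that often takes its place in mesenchymal cells, had 0 counts in all 6 libraries. EPCAM (gene ID 4072, chr2:47596450-47614159), a surface molecule of most carcinomas, also had 0 counts in all 6 libraries. Neither the epithelial nor the mesenchymal member of the cadherin pair could therefore be compared between conditions, and no ratio of CDH2 to CDH1 was taken.

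ZEB2 (gene ID 9839, chr2:145141648-145277686), the paralog of ZEB1, had 0 counts in all 6 libraries. TWIST1 (gene ID 7291, chr7:19152670-19157259) also had 0 counts in all 6 libraries. At these depths 3 counts correspond to 0.06694 to 0.09017 CPM, the level that a count of 0 allows. These genes were not detected at this depth, and this limit covers counting error only.

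VIM (gene ID 7431, chr10:17270240-17279592) encodes vimentin, the intermediate filament protein of mesenchymal cells. Its counts were 301699, 359568 and 322924 in untreated libraries 1 to 3 and 447853, 387120 and 425449 in rhCYGB libraries 1 to 3. It took 0.856%, 0.851% and 0.838% of all counts in untreated and 1.12%, 1.11% and 1.09% in treated libraries, so the groups did not overlap. By FPKM (fragments scaled to transcript length and depth, as deposited), VIM ranked 12, 13 and 13 among all genes in untreated and 8, 6 and 7 in treated libraries. Scaled to library size with TMM factors, its level was 8013 ± 90.38 CPM (SD, n = 3) in untreated and 11740 ± 273.8 CPM (SD, n = 3) in treated cells. The log2 fold change was 0.55 (SE 0.024, 95% interval 0.50 to 0.60, edgeR adjusted p = 1.12e-11), a difference above the library spread and below 2-fold.

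The deposited FPKM of VIM, which carry no TMM factor, were 3468 ± 13.41 in untreated and 4535 ± 148 in treated cells (SD, n = 3). The size of the VIM change thus depended on the scaling, since TMM factors were 1.057 to 1.061 in untreated and 0.9318 to 0.9552 in treated libraries. With total counts in place of TMM, the median log2 fold change of all tested genes moved from -0.00457 to -0.169, and VIM stayed higher at 0.39. The antisense gene VIM-AS1, whose listed span overlaps VIM and which was looked at after the values of VIM were seen, had 178, 229 and 177 counts in untreated and 154, 186 and 145 in treated libraries. Its log2 fold change was -0.06 (SE 0.155, edgeR adjusted p = 0.728). The sources do not state whether the counting used the strand.

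ZEB1 (gene ID 6935, chr10:31607346-31818742) encodes a zinc-finger and homeodomain repressor of epithelial genes. It had 1349, 1775 and 1516 counts in untreated and 3040, 2843 and 3270 counts in rhCYGB libraries. Every treated library lay above every untreated library, also by FPKM, where the values were 5.57, 6.15 and 5.85 in untreated and 11.4, 11.6 and 12.6 in treated libraries. Its level was 37.66 ± 1.751 CPM in untreated and 85.33 ± 3.437 CPM in treated cells (SD, n = 3). The log2 fold change was 1.18 (SE 0.0502, 95% interval 1.07 to 1.29, edgeR adjusted p = 8.80e-12).

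Of 41 ZEB1 transcripts in the deposited transcript table, 27 had a count, 8 were tested, 3 were called higher and none lower. Of these 3, 2 had 0 counts in every untreated library and were kept for testing through the treated libraries alone. The count of 3 is therefore no support for a rise. Over all 32577 tested transcripts of the table, 15.1% were called higher and 29.9% in some direction. The most abundant, NM_001174096, had 900, 889 and 795 counts in untreated and 1223, 1189 and 1316 in treated libraries. Its log2 fold change was 0.64 (SE 0.106, edgeR adjusted p = 0.00761), smaller than that of the gene.

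The next most abundant ZEB1 transcript, NM_030751, had 204, 566 and 696 counts in untreated and 982, 1177 and 1185 in treated libraries, with no overlap, and its log2 fold change of 1.33 (SE 0.425) did not pass (edgeR adjusted p = 0.0688). The other transcripts called higher, NM_001174093 and NM_001323648, had 0 counts in every untreated library. NM_001174093 had 234, 67 and 234 counts in the treated libraries, and NM_001323648 had 129, 31 and 77. The share of NM_001174096 in all ZEB1 counts was 66.7%, 50.1% and 52.4% in untreated and 40.2%, 41.8% and 40.2% in treated libraries. Every treated library lay below every untreated library, with a difference of -15.6 percentage points and a two-sided exact permutation p of 0.1, the smallest that 3 against 3 libraries allow. The share of NM_030751 was 15.1% to 45.9% in untreated and 32.3% to 41.4% in treated libraries, and the groups overlapped. The ZEB1 transcripts share sequence, and how shared reads were divided among them is not given in the sources used here.

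The ZEB1 locus also holds ZEB1-AS1, a divergent antisense gene looked at after the ZEB1 values were seen. ZEB1-AS1 had 324, 440 and 298 counts in untreated and 459, 393 and 454 in treated libraries. It was higher after rhCYGB with a log2 fold change of 0.50 (SE 0.107, edgeR adjusted p = 5.99e-04), less than the value of ZEB1. Its listed span overlaps ZEB1, and the sources do not state whether the counting used the strand. The part of ZEB1 reads in this difference was not tested. The miR-200 family, whose members target ZEB1 and ZEB2 mRNA, could not be followed, since MIR200A, MIR200B, MIR200C, MIR141 and MIR429 had 0 counts in all 6 libraries and mRNA libraries do not capture mature microRNAs. MIR200CHG, the host transcript of MIR200C and MIR141, had 2 counts, all in untreated library 2.

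SNAI1 (gene ID 6615, chr20:48599517-48605423) encodes Snail, a short-lived repressor of CDH1. It had 113, 98 and 113 counts in untreated and 252, 245 and 250 counts in rhCYGB libraries. Every treated library lay above every untreated library. The level was 2.664 ± 0.4333 CPM in untreated and 6.976 ± 0.3359 CPM in treated cells (SD, n = 3), a log2 fold change of 1.39 (SE 0.147, 95% interval 1.08 to 1.71, edgeR adjusted p = 4.07e-07). The 95% interval overlapped that of ZEB1, and the level was low.

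SNAI2 (gene ID 6591, chr8:49830157-49833988) encodes Slug, the paralog of Snail. It had 150, 168 and 176 counts in untreated and 108, 122 and 143 counts in rhCYGB libraries. The level was 4.03 ± 0.2835 CPM in untreated and 3.484 ± 0.511 CPM in treated cells (SD, n = 3), and the groups overlapped on this scale. By FPKM, which carry no TMM factor, it was at 1.719 ± 0.1307 in untreated and 1.325 ± 0.197 in treated cells (SD, n = 3), and every treated library lay below every untreated library. The log2 fold change was -0.21 (SE 0.158, 95% interval -0.55 to 0.13, edgeR adjusted p = 0.235), so that a change of either sign within that interval was not told apart from no change. The call depended on the scaling: with total counts in edgeR the log2 fold change was -0.37 and the adjusted p was 0.0437.

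Within the Snail pair, the FPKM ratio of SNAI2 to SNAI1 was 1.04, 1.34 and 1.22 in untreated and 0.335, 0.387 and 0.447 in treated libraries. SNAI2 was the higher of the pair in each untreated library and SNAI1 in each treated library. On the log2 scale the mean ratio was 0.26 ± 0.186 in untreated and -1.37 ± 0.207 in treated cells (SD, n = 3). The difference of -1.63 had a two-sided exact permutation p of 0.1, the smallest this design allows. The ratio is taken within a library, so library scaling did not enter it.

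**Figure D2:**
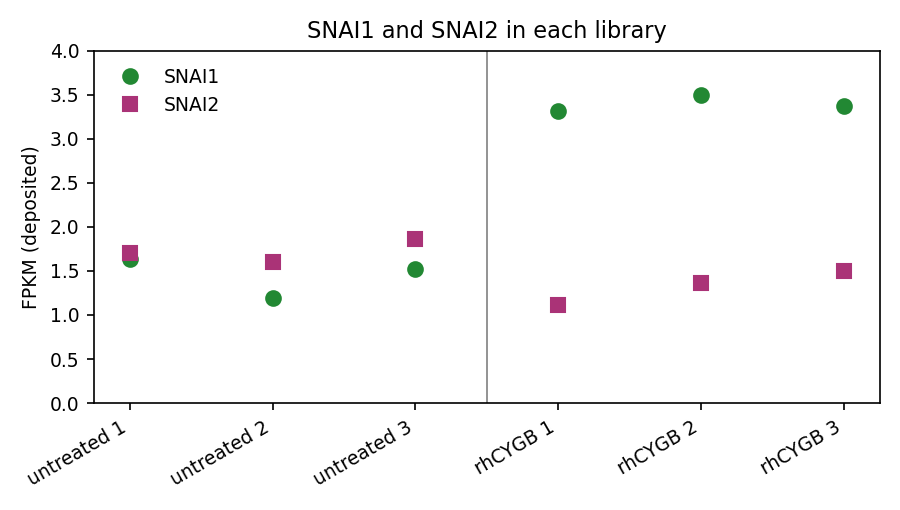
FPKM of SNAI1 (circles) and SNAI2 (squares) in each of the 6 libraries, as deposited. SNAI2 lies above SNAI1 in the 3 untreated libraries (ratio 1.04 to 1.34), and SNAI1 lies above SNAI2 in the 3 rhCYGB libraries (ratio 0.335 to 0.447).

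FN1 (gene ID 2335, chr2:216225163-216300793) encodes fibronectin, a matrix glycoprotein that mesenchymal cells secrete. It had 2, 10 and 20 counts in untreated and 12, 14 and 17 counts in rhCYGB libraries. The untreated libraries spanned the whole range of the treated ones. The level was 0.2557 ± 0.2202 CPM in untreated and 0.4017 ± 0.07103 CPM in treated cells (SD, n = 3), a log2 fold change of 0.63 (SE 0.559, 95% interval -0.57 to 1.82, edgeR adjusted p = 0.317). FN1 was kept for testing through its treated libraries, since only 1 untreated library reached the count level asked for in 3. Leaving out untreated library 3 moved its log2 fold change to 1.46 (adjusted p = 0.0543), and leaving out untreated library 1 moved it to 0.18. Of its 18 listed transcripts 4 had a count, and the transcript that held most counts differed between libraries of the same group.

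Per transcript length, the order of the 10 genes in untreated cells was VIM (3468 ± 13.41 FPKM), ZEB1 (5.855 ± 0.2885), SNAI2 (1.719 ± 0.1307), SNAI1 (1.449 ± 0.232) and FN1 (0.0263 ± 0.02274), followed by CDH1 and the 4 genes at 0. The neighbours SNAI2 and SNAI1 overlapped between untreated libraries, and the other neighbours among the first 5 did not. In rhCYGB-treated cells the order was VIM (4535 ± 148 FPKM), ZEB1 (11.85 ± 0.6311), SNAI1 (3.396 ± 0.0935), SNAI2 (1.325 ± 0.197) and FN1 (0.03459 ± 0.004914), with no overlap between neighbours. The mesenchymal filament gene thus lay far above every other gene of the set in both conditions. Of the transcription factors that changed, ZEB1 ranked 4700, 4485 and 4423 by FPKM in rhCYGB libraries 1 to 3, and SNAI1 ranked 8640, 8381 and 8682. In these libraries 17353, 17204 and 17436 genes had an FPKM above 0.

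**Figure D3:**
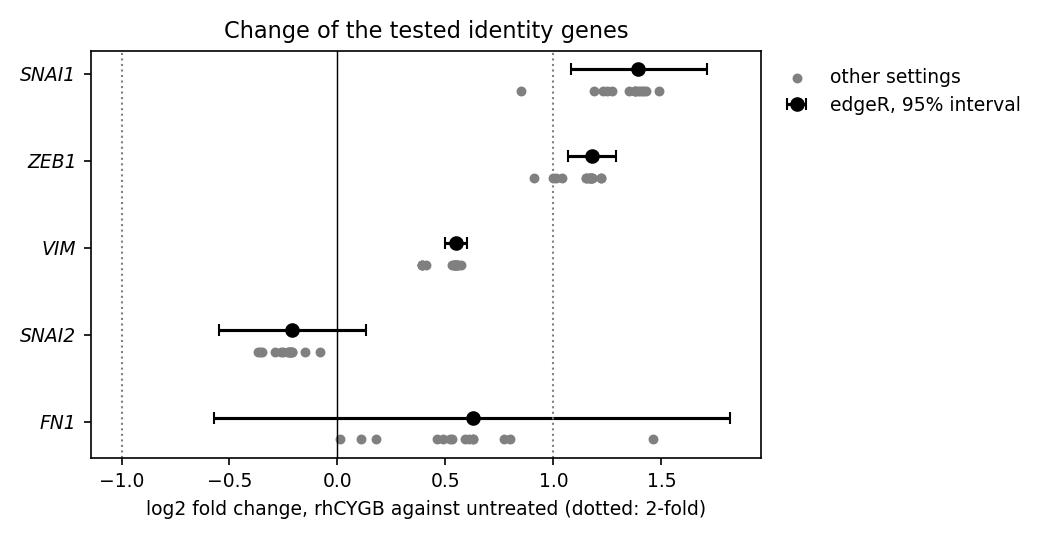
Log2 fold change of the 5 tested genes, rhCYGB against untreated, with the edgeR estimate and its 95% interval in black, the 15 other processing settings in grey (14 for FN1), and dotted lines at 2-fold. The intervals of SNAI1 (1.08 to 1.71), ZEB1 (1.07 to 1.29) and VIM (0.50 to 0.60) lie above 0, and those of SNAI2 and FN1 include 0.

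The genes around these 10 were followed in lists of pathway members, each counted by direction and read against the share of all tested genes (39.0% higher, 38.6% lower, median log2 fold change -0.00457). Of 18 other transcription factors linked to the transition, 11 were tested, of which 5 were higher and 4 lower, with a median log2 fold change of 0.12. FOXQ1, a forkhead factor, was higher at 1.02 (SE 0.111, edgeR adjusted p = 6.14e-07), as was FOXC1, another forkhead factor, at 0.39 (SE 0.0839). SOX4 was lower at -1.46 (SE 0.119), and SOX9, which marks ductal and progenitor cells of the pancreas, was lower at -1.32 (SE 0.0398). The most abundant per length, ZNF217, a zinc-finger factor, was at 0.08 and did not pass (adjusted p = 0.0622). The changes in this list ran in both directions, and its median moved to -0.04 with total counts.

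Of 16 epithelial transcription and splicing regulators, 9 were tested, 5 were higher and 3 lower, with a median log2 fold change of 0.45 (0.29 with total counts). KLF4, a Krüppel-like factor of differentiating epithelia, went from 25.57 ± 1.228 to 182.2 ± 12.33 CPM (SD, n = 3), a log2 fold change of 2.83 (SE 0.0564, edgeR adjusted p = 2.50e-15). KLF5 rose by 2.08 (SE 0.155) from a low level, and TP63, the basal epithelial p53 relative, by 0.45 (SE 0.035). EHF, an ETS factor of epithelial cells, was lower at -1.08 (SE 0.041), and FOXA1 was lower at -1.48 (SE 0.312) on few counts. ESRP1, the epithelial splicing regulator, was near the filter limit at 0.2635 and 0.3304 CPM and did not pass.

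Of 32 epithelial junction, polarity and surface genes, 22 were tested, 12 were higher and 7 lower, with a median log2 fold change of 0.52. With total counts 10 were higher and 8 lower, and the median was 0.35. With at least 10 counts asked for in every library, 20 were tested, 11 were higher and 7 lower. The tight junction gene OCLN (occludin) went from 26.93 ± 0.4053 to 94.99 ± 4.455 CPM (SD, n = 3), a log2 fold change of 1.82 (SE 0.0493, edgeR adjusted p = 5.90e-14). The claudins CLDN1 and CLDN4, which seal tight junctions, rose by 1.25 (SE 0.0496) and 0.91 (SE 0.038), and PATJ, a polarity scaffold, by 1.24 (SE 0.0564). Other members fell: MUC1, an apical mucin, was at -1.40 (SE 0.0898), and PKP3, a desmosomal plakophilin, at -0.98 (SE 0.0486). Genes of this list therefore stood on both sides while CDH1 and EPCAM had no more than 2 counts.

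Of 22 catenins and other cadherins, 10 were tested, 3 were higher and 4 lower, with a median log2 fold change of 0.00 (-0.16 with total counts). With at least 10 counts asked for in every library, 9 were tested, 3 were higher and 3 lower. CTNNA1, which links cadherins to actin, rose by 0.80 (SE 0.0349) to 634.7 ± 7.678 CPM (SD, n = 3). CTNNB1 (beta-catenin) fell from 228.8 ± 5.864 to 113.8 ± 0.7026 CPM (SD, n = 3), a log2 fold change of -1.01 (SE 0.0368, edgeR adjusted p = 1.51e-12). CTNND1 (p120 catenin), which holds cadherins at the membrane, fell to a log2 fold change of -0.74 (SE 0.0441). These partners of cadherins were thus well counted although neither CDH1 nor CDH2 was.

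The remaining cadherins were then looked at, a choice made after the zeros of CDH1 and CDH2 had been seen. Of 23 genes named CDH and a number, 13 had 0 counts in every library, 6 were tested, none was higher and 3 were lower, each by 2-fold or more (14.7% of all tested genes were lower by that measure). CDH5, the cadherin of endothelial junctions, had FPKM of 27.8, 27.8 and 25.2 in untreated and 2.16, 2.71 and 2.63 in treated libraries. CDH5 held 90.0%, 90.1% and 88.1% of the summed cadherin FPKM in untreated and 47.6%, 54.6% and 51.5% in treated libraries. Its log2 fold change was -3.26 (SE 0.0759, edgeR adjusted p = 1.22e-14). The endothelial markers PECAM1 and KDR were at 0 in every library, beside this change. CDH10 (-3.15, SE 0.493) and CDH23 (-1.14, SE 0.239) were also lower, and CDH24 (0.07), CDH15 (0.17) and CDH3 (0.96) did not pass. CDH10 had 66, 92 and 101 counts in untreated and 14, 11 and 0 in treated libraries. It was kept for testing through its untreated libraries, so its call is no support for a fall of the cadherins.

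**Figure D4:**
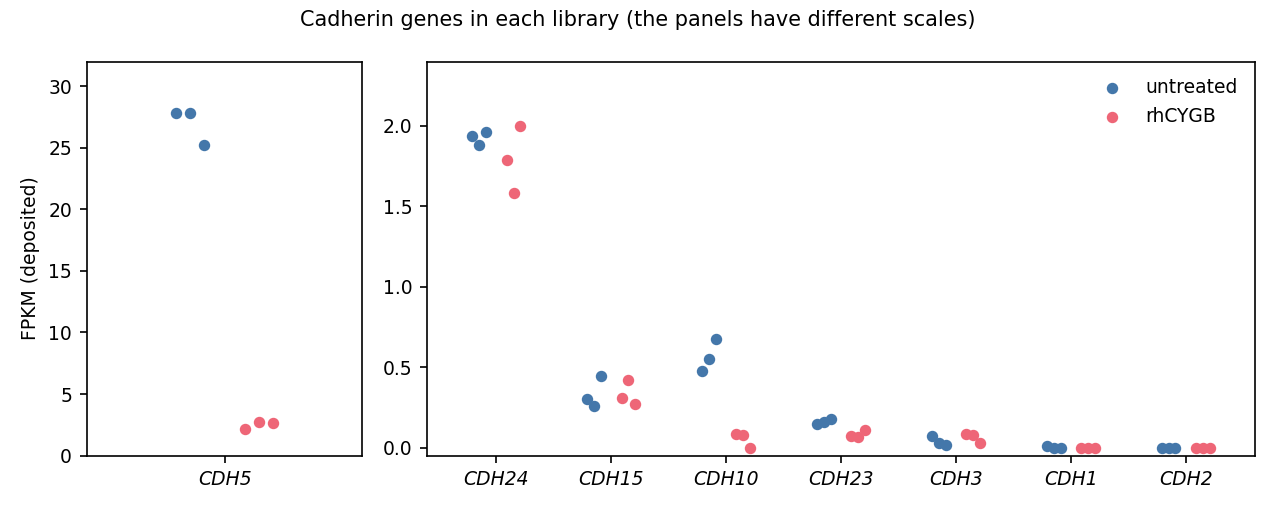
FPKM of the 6 tested cadherin genes and of CDH1 and CDH2 in each library, as deposited, in untreated (blue) and rhCYGB (red) libraries, with CDH5 on a scale of its own. CDH5 lies at 25.2 to 27.8 in untreated and 2.16 to 2.71 in rhCYGB libraries, and CDH2 is at 0 in all 6 libraries.

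Of 23 keratin and other intermediate filament genes, the family VIM belongs to, 12 were tested, 4 were higher and 5 lower, with a median log2 fold change of -0.17. The epithelial keratin KRT8 fell from 2085 ± 77.79 to 1190 ± 41.13 CPM (SD, n = 3), a log2 fold change of -0.81 (SE 0.036, edgeR adjusted p = 1.47e-11). Its partner KRT18 was at 0.04 (SE 0.0352) and did not pass (adjusted p = 0.315), and KRT19 fell to -0.61 (SE 0.0431). The listed spans of KRT8 and KRT18 overlap. SYNM, a filament protein that joins vimentin networks, was lower at -2.16 (SE 0.0867). The 4 that rose had few counts and were kept for testing through their treated libraries, so their count is no support for a rise. With at least 10 counts asked for in every library, 8 genes of the list were tested, none was higher and 5 were lower. KRT17 had 0 counts in untreated and 11, 22 and 17 in treated libraries, and PRPH had 0 in untreated and 39, 29 and 33 in treated libraries, both named after their values were seen. KRT86 and KRT81 are near-identical hair keratins with overlapping spans, so how their reads were divided is uncertain; KRT86 had 14, 6 and 7 counts in untreated and 146, 148 and 155 in treated libraries. VIM was thus the filament gene with the most counts, and it rose while the keratins KRT8 and KRT19 fell. KRT18, also abundant at 1648 ± 59.6 CPM in untreated and 1694 ± 55.74 CPM in treated cells (SD, n = 3), did not pass.

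Of 32 mesenchymal marker genes other than VIM and FN1, 21 were tested, 9 were higher and 9 lower, with a median log2 fold change of -0.02. With total counts the split was 3 higher and 10 lower, where that of all tested genes was 4680 higher and 6728 lower. QKI, an RNA-binding splicing factor of mesenchymal cells, rose by 1.05 (SE 0.0528, edgeR adjusted p = 6.13e-11). CNN1, a smooth muscle calponin, had 0, 0 and 3 counts in untreated and 47, 62 and 36 in treated libraries. It was kept for testing through its treated libraries. With at least 10 counts asked for in every library, 20 genes of the list were tested, 8 were higher and 9 lower. S100A4, a calcium-binding protein of motile cells, fell from 621.2 ± 18.07 to 241.1 ± 5.811 CPM (SD, n = 3), a log2 fold change of -1.37 (SE 0.037, adjusted p = 5.91e-14). LOXL2, a collagen cross-linking oxidase, was at -1.30 (SE 0.0405), and FSTL1, a secreted glycoprotein, at -1.85 (SE 0.103). CD44, the hyaluronan receptor, was higher by 0.11 (SE 0.0318, adjusted p = 0.00548). The fibroblast collagen COL1A2 fell with this list's lower members, from 142.2 ± 6.05 to 6.856 ± 0.9255 CPM (SD, n = 3), and its part in these values was not tested.

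Of 26 genes for corepressors and for the turnover of Snail and ZEB proteins, all were tested, 15 were higher and 7 lower, with a median log2 fold change of 0.25. With total counts, where all tested genes split into 4680 higher and 6728 lower, the list had 13 higher and 10 lower. USP27X, a deubiquitinase of Snail, rose by 1.14 (SE 0.0692, edgeR adjusted p = 5.55e-10), and PAK1, a kinase that phosphorylates Snail, by 1.02 (SE 0.0483). FBXL5, an F-box protein that degrades Snail, also rose, by 0.91 (SE 0.0518). Genes of opposite effect on Snail protein thus rose together at the mRNA level. The histone deacetylase HDAC1, a corepressor that Snail recruits, fell from 235.8 ± 2.28 to 89.76 ± 7.322 CPM (SD, n = 3), a log2 fold change of -1.39 (SE 0.0497, adjusted p = 1.19e-12). KDM1A, a histone demethylase that SNAI1 binds, was at -0.52 (SE 0.0428), and HDAC2 at -0.48 (SE 0.0369).

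Of 19 TGF-beta receptors, SMADs and their modulators, a pathway that induces Snail and ZEB genes, 18 were tested, 13 were higher and 5 lower, with a median log2 fold change of 0.40. With total counts 11 were higher and 5 lower, and the median was 0.23. With at least 10 counts asked for in every library, 16 were tested, 11 were higher and 4 lower. TGIF1, a SMAD corepressor, went from 62.67 ± 4.279 to 238.1 ± 9.673 CPM (SD, n = 3), a log2 fold change of 1.93 (SE 0.0501, edgeR adjusted p = 3.89e-14), while its relative TGIF2 was at -1.46 (SE 0.0869). SMAD7, an inhibitory SMAD, rose by 2.09 (SE 0.339) on few counts and SKIL, a SMAD inhibitor, by 1.56 (SE 0.0898). SMAD3, the receptor-activated SMAD, fell from 124.1 ± 2.278 to 50.44 ± 2.144 CPM (SD, n = 3), a log2 fold change of -1.30 (SE 0.0438, adjusted p = 6.61e-13). SMAD6, the other inhibitory SMAD, was at -2.15 (SE 0.381). SKI, SMURF1 and SMURF2, which also restrain the pathway and were the most abundant per length of the genes not yet named, rose by 0.29, 0.94 and 0.82. The genes that follow were named after their values were seen. The modulators BAMBI and PMEPA1 rose by 0.33 and 0.45. Genes that carry the signal also rose: ACVR1B by 1.05, SMAD2 by 0.98, SMAD4 by 0.53, TGFBR1 by 0.35 and TGFBR3 by 0.29. LTBP1 and LTBP3 were lower at -0.48 and -0.89. Genes that carry the signal and genes that restrain it thus stood on both sides.

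**Figure D5:**
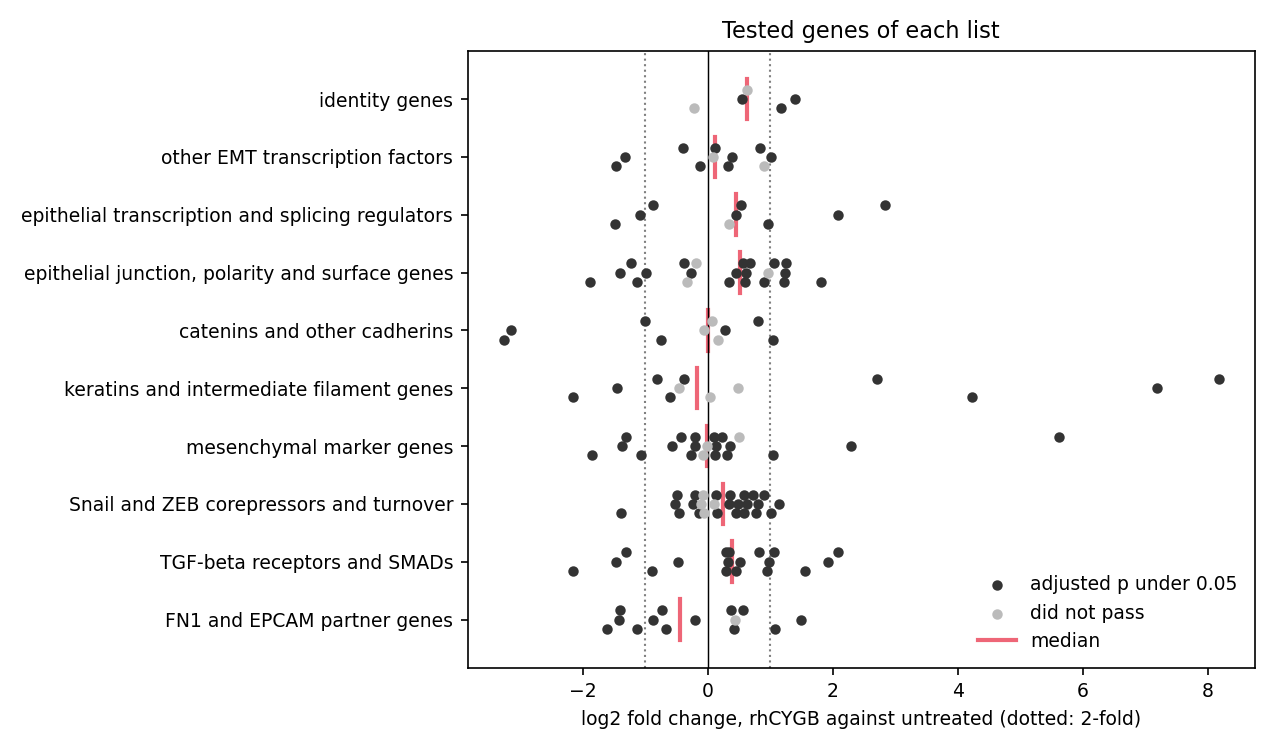
Log2 fold change of every tested gene of the 10 identity genes and of the lists around them, with dark points for genes at an adjusted p under 0.05, grey points for the others, a red bar for the list's median, and dotted lines at 2-fold. Changed genes stand on both sides of 0 in every list, except that the changed identity genes are all higher. The points of the filament genes KRT17 and PRPH, the farthest right, come from genes with 0 untreated counts, and their position depends on the fitted prior count.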

How the data were processed

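The authors sequenced stranded mRNA libraries from paired ends, 3 untreated and 3 rhCYGB. Their processing notes name FastQC 0.11.7, HISAT2 2.1.0 and StringTie 2.1.3b. The read counts deposited by the authors are whole numbers without normalization, for 35993 genes and 81203 transcripts, and whether counting used the strand is not given in the sources used here. FPKM, also deposited by the authors, are scaled to length and depth. The TPM columns deposited, 6 per table, were not used. The notes name mm10, a mouse build, although the genes are human and positions on chromosome 1 reach 249231298, past the last GRCh38 gene end at 248937099. Positions are therefore those of the deposited table with no build named.

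Counts were tested with edgeR 4.0.16 (R 4.3.3), using filterByExpr, TMM scaling and quasi-likelihood F-tests over the 6 libraries with no block, with Benjamini-Hochberg adjustment over all 14728 tested genes or 32577 tested transcripts, and calls at an adjusted p under 0.05. The SE is the size of the log2 fold change divided by the square root of F. CPM use TMM-scaled library sizes, and log2 CPM add a prior count of 2. The biological coefficient of variation was 5.48%, and libraries of a group differed by more than counting error. Of all genes, 15205 had 0 counts in every library. Limits from counts cover counting error only.

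The members and lists were chosen with earlier results of these data known. The text names all members and, from each list, the 3 highest and 3 lowest log2 fold changes among passing genes with at least 1 CPM in the higher group, and up to 3 more by FPKM, but some are not reported here. Where a gene falls outside the rule, the text says that it was looked at after the values were known. Likeness is the root mean square difference of centred log2 CPM over the 6 libraries. Alternatives were DESeq2 1.42.0 and its size factors, upper-quartile factors, total counts, limma 3.58.1 on log2 FPKM, other filters, a replicate block and leaving out each library.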

Additional observations from a re-analysis of the deposited data

How the results depend on the processing

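The count of 3 genes called higher (VIM, ZEB1 and SNAI1) was the same under all 15 alternatives, with log2 fold changes of 0.39 to 0.57 for VIM, 0.91 to 1.22 for ZEB1 and 0.85 to 1.49 for SNAI1. SNAI2 ranged from -0.37 to -0.08 and FN1 from 0.01 to 1.46. The count called lower went from 0 to 1 (SNAI2) with total counts, with limma on log2(FPKM + 1) (-0.23, adjusted p = 0.023) and with limma on log2(FPKM + 0.1) (-0.36, adjusted p = 0.0309). The keratin list had 9 called genes, and 5 with at least 10 counts asked for in every library, where fewer genes were tested. The other 134 list counts stayed within 1.5 times. Replicate numbers did not pair the libraries, since deviations of same-numbered libraries correlated at -0.0479, 0.00715 and 0.00554. With the replicate number as a block the called transcripts of the identity genes went from 5 to 1, that of VIM, so that the 3 called transcripts of ZEB1 and that of SNAI1 did not pass (NM_001174096 at an adjusted p of 0.0532), and the 3 genes called higher were called again. Leaving out each library in turn gave 4 to 6 called transcripts, a SNAI2 to SNAI1 log2 ratio difference of -1.73 to -1.52 and a ZEB1 transcript share difference of -18.8 to -10.5. The share difference of the leading FN1 transcript, 5.88 percentage points on few counts, ranged from -27.5 to 33.3 and reversed to -27.5 without untreated library 2 and to -7.84 without rhCYGB library 1 or 2. Depth limits CDH1, CDH2, EPCAM, TWIST1, ZEB2 and FN1.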

Other observations

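Genes that work with fibronectin and EPCAM were measured although FN1 was barely counted and EPCAM was not. Of 16 such genes 14 were tested, and 5 were higher and 8 lower after rhCYGB, where 39.0% of all tested genes were higher and 38.6% lower. The median log2 fold change of the list was -0.43 beside -0.00457 over all tested genes. ITGB1, a beta subunit of fibronectin receptors, went from 983.4 ± 23.03 to 1461 ± 20.39 CPM (SD, n = 3), a log2 fold change of 0.57 (SE 0.0315, edgeR adjusted p = 1.84e-10). The alpha subunits ITGA5 and ITGAV of fibronectin receptors, named after their values were seen, were lower at -0.88 and -1.12. ADAM17, a sheddase that cleaves EPCAM, rose by 1.08 (SE 0.0419), and FHL2, a LIM-domain cofactor, by 1.49 (SE 0.0541). TGM2, a transglutaminase that binds fibronectin, fell from 433.5 ± 29.11 to 164.5 ± 3.896 CPM (SD, n = 3), a log2 fold change of -1.40 (SE 0.0469, adjusted p = 6.19e-13). SDC4, a syndecan that binds fibronectin, was at -0.73 (SE 0.0412), and the matrix genes FBN1 and FBLN1 were at -1.61 (SE 0.188) and -1.42 (SE 0.0975).

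Across the 6 libraries and 13122 candidate genes, the gene whose centred log2 CPM lay closest to that of VIM was TNIP2, with a root mean square difference of 0.0161. For ZEB1 it was SOCS7 at 0.0261, for SNAI1 ANKRD37 at 0.0861, for SNAI2 LTB4R2 at 0.0478 and for FN1 FAM24B-CUZD1 at 0.17. These are descriptions over 6 libraries that share the 2 conditions, and no p is given.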
